A study of Mus musculus with 10 samples.

Results

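Irf2bp2 encodes interferon regulatory factor 2 binding protein 2, and the chromatin loops around its transcription start site (TSS) were followed through a macrophage (MF) priming model. The gene (ENSMUSG00000051495.7) lies at chr8:126588296-126593986 on the minus strand of GRCm38, so that higher coordinates are on its upstream side and its TSS is at 126593986. Loops were taken from 5 Hi-C loop lists, 1 per group, whenever either 10 kb anchor bin overlapped the 100 kb on either side of the TSS (126493986 to 126693986). This gave 757 of the 301424 loops in the lists, at 296 distinct bin pairs. The gene had been chosen by its loop number after IFNG in primed cells (pIL-4 + IFNG set against M2p[pIL-4]) in these same lists, so this contrast is given as a description with no test.

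Hi-C ligates and sequences stretches of DNA found near each other in nuclei. The cells were bone marrow-derived MFs of wild-type C57BL/6 female mice of 2-3 months, grown with M-CSF, the cytokine that drives MF differentiation, and treated on day 6. M0[CTR] cells were left untreated. M2[IL-4] cells had IL-4 at 20 ng/ml for 24 h, and M2p[pIL-4] cells had the same IL-4 exposure, a washout and 24 h of rest. Unprimed IFNG cells had 3 h of IFNG at 20 ng/ml. The pIL-4 + IFNG cells had the priming, the rest and then the same IFNG treatment. Each group had 2 replicates in the labels but a single list, so differences between lists could not be set against replicate spread. The lists hold no RNA values, and the cell identity was taken from the labels. They held 53424 to 67728 loops and 2174945 to 2787117 contacts, the part of each library that fell on called pairs, which is not its depth in reads. A count is the number of contacts at a called bin pair, and a pair that is not called may still have contacts.

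IRF2BP2 is a nuclear cofactor with a zinc finger and a RING-type domain. It was found as a partner of IRF2, an interferon regulatory factor that can oppose IRF1 at interferon-responsive genes, and it acts mainly as a corepressor. In MFs it is known for restraining inflammatory gene expression. A loop call marks a pair of regions that contact each other more often than their surroundings, and CTCF, a DNA-binding protein with an oriented motif, sits at many loop anchors in mammals.

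The sequence context of the anchors was read from the reference, not from the samples. CTCF cores (CCA, any 2 bases, AG, any base, then GGGC, exact letters on both strands) were found at 18 sites in 16 of the 49 bins between 126490001 and 126980000, the stretch that held every loop of the set. That is 32.7% of these bins, against 22.7% of all 10 kb bins of the genome and 37.9% of all bins used as an anchor. Of the 18 sites, 13 were on the minus strand and 16 lay wholly in repeats as marked in the reference. The same core letters recurred in 15 of them. The sites below are shown because they lie in, or in the stretch next to, the anchor bins of the strongest loop of the locus or were the 2 that lay partly outside repeats; each is written 5′ to 3′ along its own strand with the core in capitals, and the coordinates are those of the core.

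Downstream anchor of the strongest loop, chr8:126496163-126496174, minus strand: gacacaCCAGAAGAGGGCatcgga

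Upstream anchor of the strongest loop, chr8:126927265-126927276, minus strand: tagaggCCAGAAGAGGGCggcaga

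Bin beside the downstream anchor, chr8:126509376-126509387, minus strand: aggggtCCAGAAGAGGGCatcaga

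Bin beside the upstream anchor, chr8:126915555-126915566, plus strand: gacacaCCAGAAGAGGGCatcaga

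Bin on the other side of the upstream anchor, chr8:126936165-126936176, minus strand: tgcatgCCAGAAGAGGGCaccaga

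Site partly outside repeats, chr8:126519757-126519768, minus strand: tggagaCCACAAGAGGGCgccaga

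Site partly outside repeats, chr8:126776796-126776807, minus strand: ccttccCCAGCAGAGGGCcctggt

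The promoter of Irf2bp2 lies in the 10 kb bin from 126590001 to 126600000, the anchor to which its own loops are referred below. Its 250 bases upstream of the TSS (RefSeq, GRCm38.p6, chr8:126593987-126594236, minus strand, CpG dinucleotides in capitals) were rich in G and C.

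Irf2bp2 promoter: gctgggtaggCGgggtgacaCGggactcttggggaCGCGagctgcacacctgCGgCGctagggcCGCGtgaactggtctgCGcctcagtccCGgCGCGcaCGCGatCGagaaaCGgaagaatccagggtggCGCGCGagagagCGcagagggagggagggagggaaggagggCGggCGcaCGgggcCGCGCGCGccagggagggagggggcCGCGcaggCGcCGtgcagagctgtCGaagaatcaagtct

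The GC content of this sequence was 71.6% (median of 32851 promoters 52.4%). It held 32 CpGs against a median of 6, which placed it at the 96.0 percentile. In the promoter extended 50 bases past the TSS, neither the CTCF core nor an interferon regulatory factor element (GAAA, any 2 bases, then GAAA, on both strands) was found, while 1.04% and 3.44% of all promoters of that length held them. The latter element occurred in 37 of the 49 bins, or 75.5%, a share close to the 81.5% of all bins and the 75.6% of all anchor bins.

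Irf2bp2 sat in one of the most loop-rich stretches of the genome in every group. M0[CTR] had 134 loops, M2[IL-4] had 148, M2p[pIL-4] had 189, IFNG had 139 and pIL-4 + IFNG had 147. Series of 5 values follow this order of lists throughout. M2p[pIL-4] stood above the other groups, which lay within 14 loops of each other. Among 21755 protein-coding genes the locus ranked 24, 12, 5, 20 and 22 by loop number in that order of lists, while the median gene had 6 to 8 loops. Per 10000 loops of the list, M0[CTR] had 25.1, M2[IL-4] had 25.4, M2p[pIL-4] had 27.9, IFNG had 25.3 and pIL-4 + IFNG had 21.9. On this scale pIL-4 + IFNG was the lowest list and M2p[pIL-4] the highest, with the others close together. No replicate values were analysed here, so which neighbours in this order differ cannot be said.

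The difference by which the gene was chosen was a fall of 42 loops, from 189 in M2p[pIL-4] to 147 in pIL-4 + IFNG. It was the largest fall in number among the 21755 genes, followed by Gm5150 with a fall of 38 and Dusp4 with a fall of 37. As a ratio it was modest. With 1 added to each number and list length divided out, the log2 ratio was -0.34, a 0.787-fold change at the 14.4 percentile of 11008 genes with at least 10 loops in the higher list. It did not reach 1.5-fold, which 6.03% of those genes did in the same direction. The M2p[pIL-4] list also held the largest rise over M0[CTR] of any gene, by 55 loops. On the scaled log2 scale that rise was 0.15, and 6.4% of genes were higher by 1.5-fold or more. Both values turn on the same M2p[pIL-4] list. Merged into groups of touching bin pairs, the number was 25, 29, 24, 21 and 28, so that on this count the direction turned and the log2 ratio with priming was 0.22.

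Without priming, the loop number near Irf2bp2 was close in the lists with and without IFNG. The counts were 134 in M0[CTR] and 139 in IFNG, a scaled log2 ratio of 0.01, and 6.97% of genes were lower by 1.5-fold or more. IL-4 for 24 h gave 148 loops against 134, a scaled log2 ratio of 0.02 with 7.81% of genes higher by 1.5-fold or more. These last comparisons share the M0[CTR] list.

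**Figure D1:**
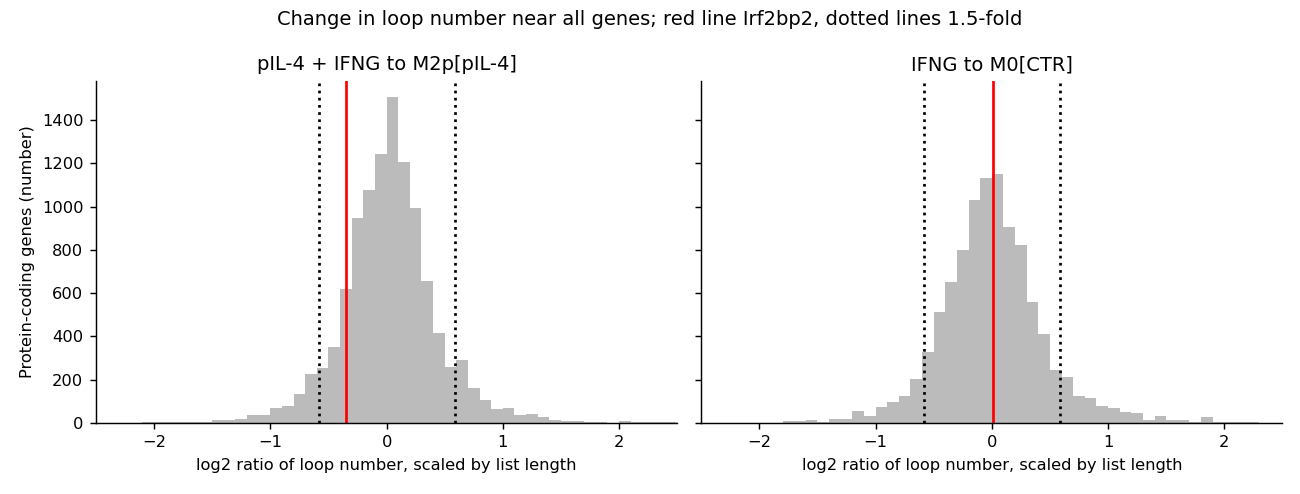
Histograms of the log2 ratio of loop number within 100 kb of the TSS, scaled by list length, over protein-coding genes with at least 10 loops in the higher list (y axis, number of genes), for pIL-4 + IFNG to M2p[pIL-4] and for IFNG to M0[CTR]. The red line for Irf2bp2 lies at -0.34 in the first and 0.01 in the second, inside the dotted lines that mark 1.5-fold.

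The fall after priming lay in loops shorter than 200 kb, a split made after the locus had been seen. Such loops numbered 46, 61, 79, 40 and 37. Both IFNG lists were below the 3 lists without IFNG, as was so for 6.73% of 8788 genes. Loops of 200 kb or more numbered 88, 87, 110, 99 and 110 in the same order, so that the pair with priming were equal. In the whole lists, loops under 200 kb went from 38778 to 38486 between these primed lists, with little change. For the shorter loops of Irf2bp2 the scaled change was 0.479-fold, at the 1.35 percentile of 8574 genes, of which 5.6% were lower by 1.5-fold or more. These loops are part of the fall by which the gene was chosen, so a low percentile follows in part from that choice. For the longer loops it was 1.02-fold. Without priming, the shorter loops were 46 in M0[CTR] and 40 in IFNG, a 0.874-fold change at the 29.4 percentile, well within the spread of other genes. Within the shorter class, loops of 20 to 90 kb went from 42 to 15 and those of 100 to 190 kb from 34 to 20 between the same lists.

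**Figure D2:**
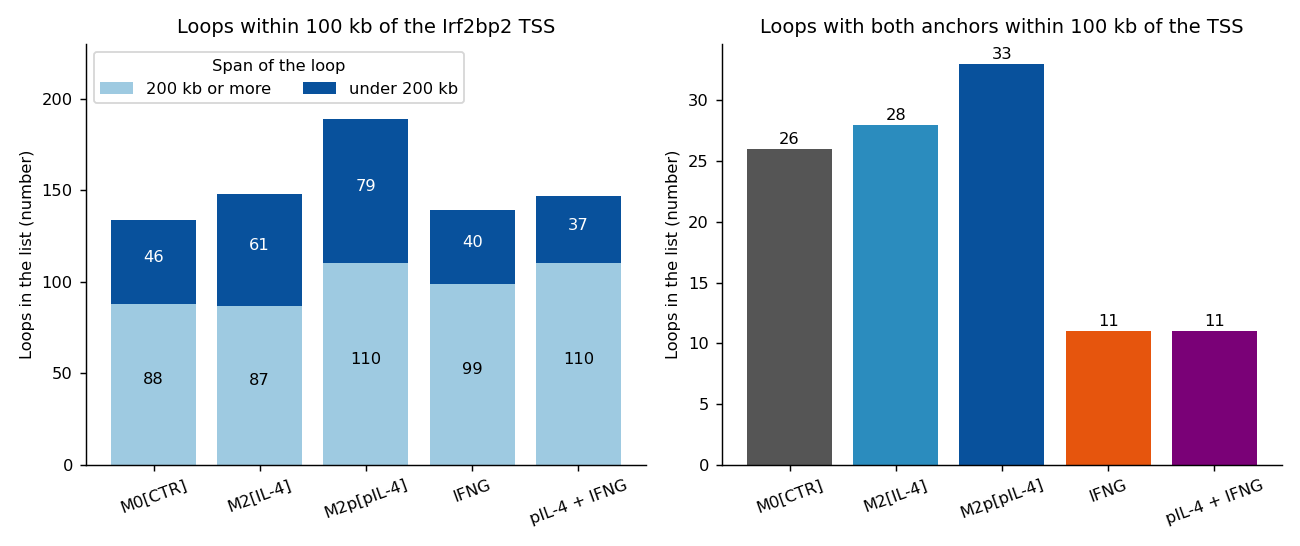
Number of loops near Irf2bp2 in each list. Left, all loops, stacked by span; the segment under 200 kb is 79 with priming alone and 37 with IFNG after it, while the segment of 200 kb or more is 110 in both. Right, loops with both anchors in the window, 26 to 33 in the lists without IFNG and 11 in each list with IFNG.

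The lists with IFNG held fewer loops with both anchors inside the window around the gene, a difference that depends on how touching bin pairs are counted. M0[CTR] had 26, M2[IL-4] had 28, M2p[pIL-4] had 33, and each list with IFNG had 11. Both IFNG lists were below the others, as was so for 7.2% of 4890 genes. With touching bin pairs merged the numbers were 9, 12, 6, 6 and 6, so that M2p[pIL-4] equalled both IFNG lists and the difference with priming was gone. Loops with a single anchor in the window numbered 108, 120, 156, 128 and 136. For the loops inside the window, the scaled change was 0.357-fold after priming, rank 16 from the lowest of 4683 genes, of which 6.19% were lower by 1.5-fold or more. It was 0.432-fold in IFNG against M0[CTR], rank 45 of 3856 genes with 11.3% lower by 1.5-fold or more. IL-4 without IFNG gave 0.985-fold in M2[IL-4] and 0.993-fold in M2p[pIL-4], each against M0[CTR]. This class was also chosen after the locus had been seen, and no test of the difference can be made from single lists. The contrast with priming is the one that chose the gene, so its low rank follows in part from that choice.

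Which bin pairs inside the window were called is shown in the plot of arcs. Of 50 bin pairs, 30 were in no list with IFNG and 2 were in IFNG lists alone, or 60% and 4%. Of the 81525 pairs of up to 200 kb in the lists, 36.2% were in no list with IFNG and 21.8% in IFNG lists alone. The pairs inside the window include some called in M2p[pIL-4] alone, and the gene was chosen by its high number there against pIL-4 + IFNG. Their shares thus follow in part from that choice and are a description. The 11 pairs of each IFNG list were mostly not the same, since both called 2 of them, which were also called in every other list. Of the 11 pairs called in the 3 lists without IFNG, 8 were called in one of the IFNG lists, 2 in both and 1 in neither. The pair called in neither joined the adjacent bins starting at 126570001 and 126580001, at and just past the 3′ end of the gene and overlapped by the gene model Gm26759, with 179, 152 and 163 contacts in those lists. Genome-wide, 7.70% of the 13666 pairs of up to 200 kb that were called in all 3 lists without IFNG were in neither IFNG list.

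Where such pairs were still called, their contacts were about level. The TSS bin and the bin starting at 126660001 had 59, 58, 68, 70 and 61 contacts. The pair of bins starting at 126600001 and 126650001 had 60, 72, 58, 63 and 65. On the downstream side, the bins starting at 126500001 and 126570001 had 58, 49, 57 and 57 contacts in the first 4 lists and were not called in pIL-4 + IFNG. None of these series set the IFNG lists apart by its counts. The median strength of the loops inside the window, where strength is a pair's count divided by the list's median count for pairs of equal span, was 1.08, 1.10, 1.03, 1.14 and 1.10.

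**Figure D3:**
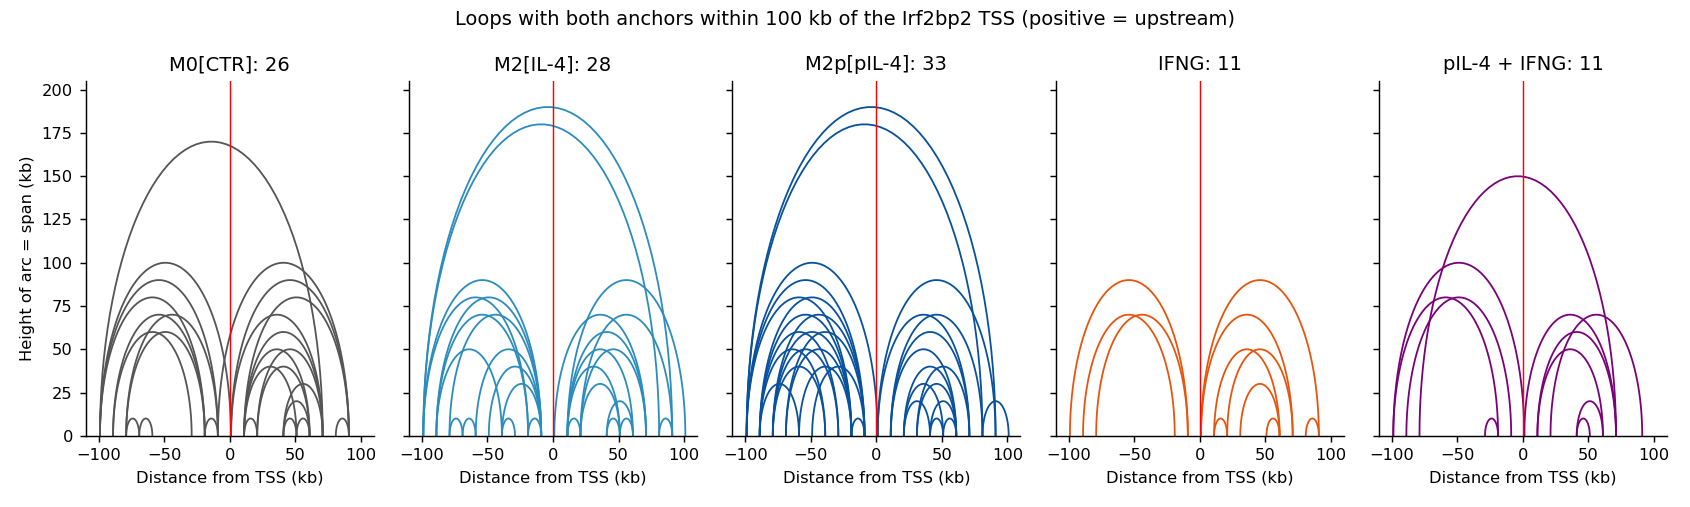
Loops with both anchors within 100 kb of the Irf2bp2 TSS, a panel per list. The x axis is the distance of the bin centre from the TSS in kb (positive is upstream, red line the TSS) and the height of an arc is the span in kb; the arcs number 26, 28, 33, 11 and 11 and are sparse on both sides of the gene in the lists with IFNG.

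The anchor with the Irf2bp2 promoter had similar numbers of loops across the groups, with 16, 15, 19, 16 and 18. Of its partner bins, 12 were called in all lists, and others came and went; the bin at the downstream edge of the window was not called in M2[IL-4] or IFNG. At those 12 partners, contacts summed to 517 (95% Poisson interval 473 to 564), 491 (449 to 536), 553 (508 to 601), 557 (512 to 605) and 527 (483 to 574). The 5 intervals overlap; they cover counting error alone. The bin with the rest of the gene, starting at 126580001, had 12, 19, 20, 16 and 12 loops, so its number was lower in pIL-4 + IFNG than in M2p[pIL-4].

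The partners of the promoter bin lay on the upstream side except for the bin at the downstream edge of the window. Loops were also counted in 4 zones, picked from these calls. By contacts, the highest partner in the first 3 lists was centred 161 kb upstream, at the bin starting at 126750001. Its contacts with the promoter bin were 63, 61, 71, 69 and 61, at strengths of 1.97, 1.91, 2.22, 2.09 and 1.97. The partner starting at 126660001 was higher in IFNG, with 70 contacts, and equal in pIL-4 + IFNG, with 61. The bin starting at 126750001 overlaps the gene model Gm45805. A second partner, at 126840001 in the zone with Gm31718 and A630001O12Rik, had 44, 45, 60, 65 and 54 contacts. At its longer span these are strengths of 1.76, 1.8, 2.4, 2.5 and 2.16, above those at 161 kb in the last 3 lists. The neighbouring bin starting at 126850001 had 55, 42, 44, 52 and 48. The order of the lists thus differed between adjacent partner bins. The farthest zone, 126910001 to 126930000, overlaps no annotated gene, and its bin starting at 126920001 had 30, 28, 47, 42 and 38 contacts with the promoter bin. Over the whole window, the zone 126740001 to 126770000 took 16, 23, 30, 20 and 22 loops, the bin 126800001 to 126810000 took 4, 3, 7, 3 and 4, the zone 126840001 to 126870000 took 19, 17, 23, 20 and 26, and the farthest zone 24, 25, 27, 28 and 26.

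**Figure D4:**
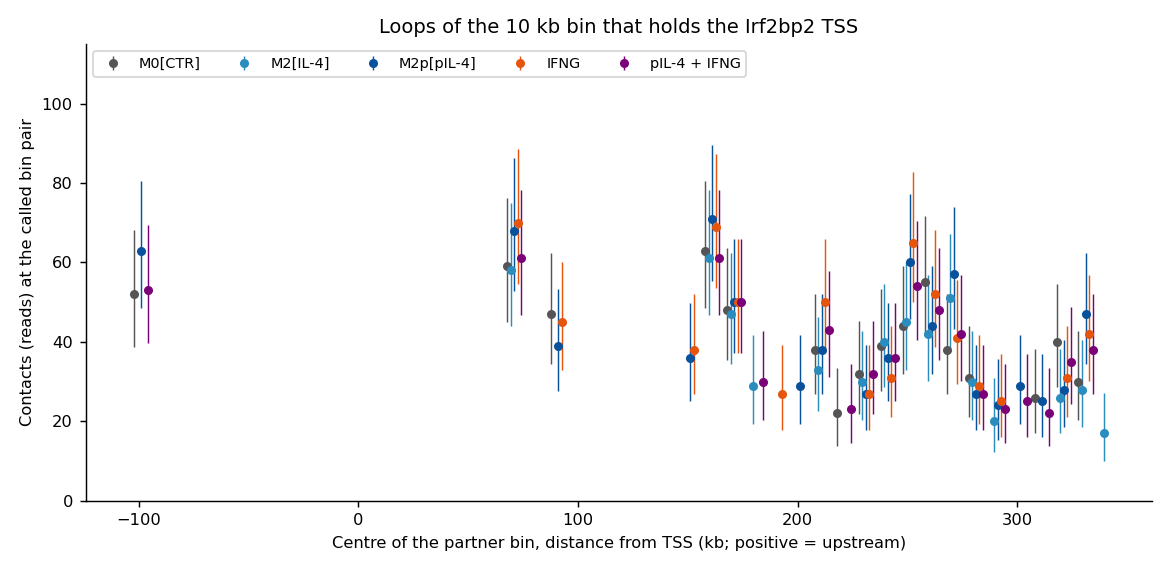
Contacts at each called bin pair of the 10 kb bin with the Irf2bp2 TSS, by the distance of the partner's centre from the TSS in kb (positive is upstream), with 95% Poisson intervals; points of the 5 lists are set slightly apart. Points of the lists overlap at most partners, as at 161 kb, where they run from 61 to 71.

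The strongest loop of the locus passed over the gene. Its anchor bins hold the CTCF cores printed above, both on the minus strand and in repeats, and CTCF binding was not examined here. The loop ran 430 kb from the bin 126490001-126500000 to the bin 126920001-126930000. M0[CTR] had 82 contacts there (95% Poisson interval 65.2 to 102), M2[IL-4] had 86, M2p[pIL-4] had 106 (86.8 to 128), IFNG had 103 and pIL-4 + IFNG had 83. Its strength was 4.82, 4.78, 6.24, 5.72 and 4.88, the highest at that span in each list, among 373 to 419 loops. M2p[pIL-4] and IFNG were the highest lists and the intervals overlapped. No bin of the window was joined to a bin below 126490001, and no loop from the stretch 126490001 to 126980000 crossed its upper end, while 35 to 43 loops per list ran from lower coordinates over the window to the upper part of that stretch.

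**Figure D5:**
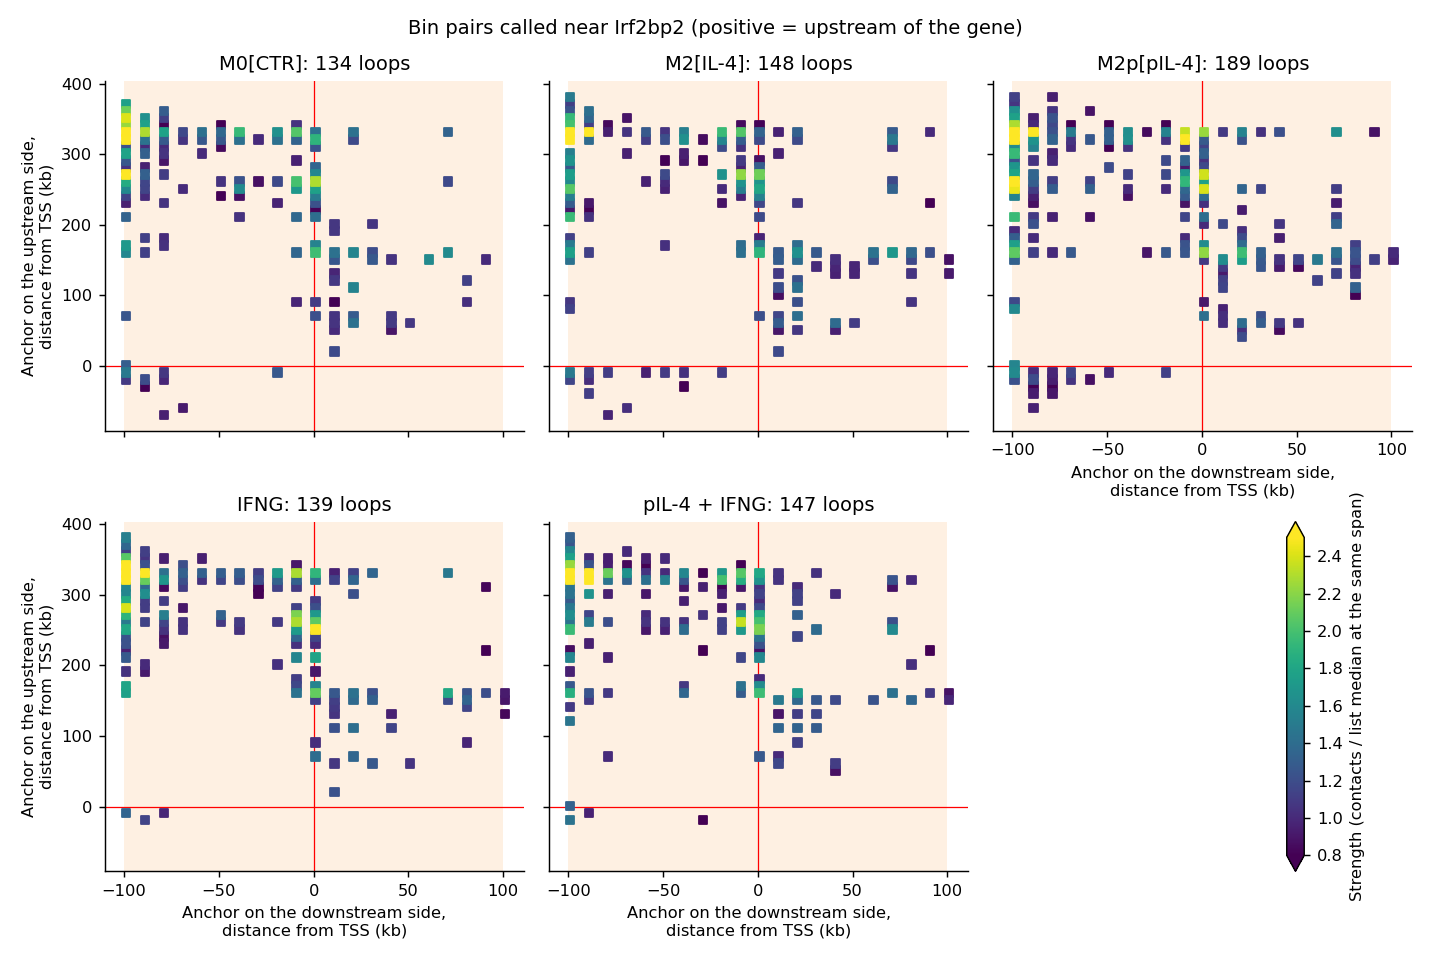
Map of the called bin pairs near Irf2bp2, a panel per list, by the distance of both anchors from the TSS in kb (positive is upstream, red lines the TSS, shading the window) and coloured by strength. The column at the downstream edge and the rows near 160, 260 and 330 kb recur in the 5 lists, and the lower left, where both anchors are downstream of the TSS, is emptier with IFNG.

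At the edges of the window, the bin just inside on the downstream side, 126490001 to 126500000, had 22, 25, 26, 22 and 23 loops, and the bin just outside had 11, 8, 9, 11 and 9. On the upstream side the last bin inside had 0, 3, 3, 3 and 2 loops and the next outside 3, 5, 5, 4 and 5. A single bin at the downstream edge thus carries more loops than the promoter bin in each list.

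Of the 189 loops of M2p[pIL-4], 98 were called at the same bins in pIL-4 + IFNG, or 51.9% (95% Wilson interval 44.8 to 58.9). The other 91 had no match at the same bins, beside 35393 of 67728, or 52.3%, in the whole list. With both anchors within 25 kb, 183 were matched, or 96.8% (93.2 to 98.5), and 11.3% of the whole list had no match. With so many loops in 49 bins, the wider match was near its ceiling in every comparison of lists and says little here. The 6 unmatched loops spanned 20 to 160 kb. By span, 25 of 79 loops under 200 kb were found at the same bins, or 31.6% (22.4 to 42.5), and 73 of 110 longer ones, or 66.4% (57.1 to 74.5). In the whole list the shares were 53.6% and 39.9%, in the opposite order, and the difference was not tested. The pIL-4 + IFNG list held 37 loops under 200 kb here, so at most 37 of the 79 could match. The low share of shorter loops thus restates in part the fall by which the gene was chosen. Over both spans, the loops without a match at the same bins had a median strength of 1.10 and the matched ones 1.27.

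Of the 134 loops of M0[CTR], 88 were at the same bins in IFNG, or 65.7% (57.3 to 73.2). The other 46 had no match there, beside 28345 of 53424, or 53.1%, in the whole list. Within 25 kb 128 were matched, or 95.5% (90.6 to 97.9), and 6 were not, beside 12.0% of the whole list. The same-bin share was 45.7% (32.2 to 59.8) for loops under 200 kb and 76.1% (66.3 to 83.8) for longer ones, beside 51.8% and 40.7% in the whole list, again with no test of the difference. These intervals cover counting error and treat touching bin pairs as separate, which they are not.

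The contacts at bin pairs called throughout were near level. The 50 pairs in all 5 lists held 1938 (95% Poisson interval 1853 to 2026), 1868, 2039, 2040 and 1951 contacts. Relative to M0[CTR] these are 0.964, 1.05, 1.05 and 1.01, beside 0.998, 1.04, 1.03 and 1.02 for the 14063 such pairs of the genome. At the 98 pairs shared by M2p[pIL-4] and pIL-4 + IFNG, contacts went from 3737 to 3649, a scaled log2 ratio of -0.02 (95% interval -0.08 to 0.05). Pairs called in both lists leave out those that fell below the caller's limit.

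Contacts summed per anchor over pairs called in both lists were tested in the comparisons that did not choose the gene (two-sided exact binomial test, Benjamini-Hochberg over all anchors). For IFNG against M0[CTR], 0 of 19 anchors in the window passed an adjusted p of 0.05, while 4 of 21396 anchors passed, or 0.0187%. Beside 2.05% of all anchors, 1 anchor of the window had an unadjusted p under 0.05. That anchor, 126550001 to 126560000, had 99 contacts in IFNG and 128 in M0[CTR], a scaled log2 ratio of -0.41 with an exact p of 0.0336 and an adjusted p of 1. The promoter bin had 602 contacts in IFNG and 564 in M0[CTR], a scaled log2 ratio of 0.05 (-0.12 to 0.22). For M2[IL-4] against M0[CTR], 0 of 20 anchors passed, and 0% of 22062 anchors passed. Of the 20, 0 had an unadjusted p under 0.05, beside 2.06% of all anchors. The promoter bin had 491 against 517 contacts, a log2 ratio of -0.07 (-0.25 to 0.11). Scaled by list totals instead, the ratio was -0.23 with an exact p of 0.0138 and an adjusted p of 0.419. The test compares pooled libraries, not conditions. On data simulated for IFNG against M0[CTR] it called 91 of 200 anchors with a seeded 1.5-fold change, and 2 unchanged anchors. The seeded anchors were drawn from those with more contacts, so this share does not cover anchors with few. The simulated counts carried counting error alone.

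The nearest coding genes shared many of these loops, and their unscaled counts ranged less over the lists. Tomm20, which encodes a receptor of the mitochondrial import machinery and lies 352 kb upstream, had 133, 147, 144, 150 and 153 loops. Rbm34, an RNA-binding protein gene beside it, had 110, 126, 119, 124 and 120. Both overlapped partner bins of the Irf2bp2 window, and neither was lower after IFNG with priming on the scaled scale, with log2 ratios of 0.10 and 0.03. On the downstream side, Tarbp1, a gene named for binding of TAR RNA, had 130, 122, 142, 121 and 125 loops, and Coa6, a cytochrome c oxidase assembly factor gene, had 111, 99, 116, 107 and 94. Their log2 ratios in that contrast were -0.17 and -0.28. In M2p[pIL-4] against M0[CTR], the scaled log2 ratios of Tomm20, Rbm34, Tarbp1 and Coa6 were -0.23, -0.23, -0.22 and -0.28, beside 0.15 for Irf2bp2. In IFNG against M0[CTR] they were 0.13, 0.13, -0.14 and -0.09, beside 0.01. The neighbours thus moved more than Irf2bp2 on the scaled scale in these contrasts. Of the other coding genes within 1 Mb, Map3k21 and Pcnx2 had 62 to 72 loops, and the cell polarity gene Pard3 had 26 to 33 per list. Ntpcr and Map10, with 15 to 33 loops, had log2 ratios of -0.46 and -0.43 in the contrast with priming, lower than that of Irf2bp2. Slc35f3 was past 1.5-fold there, at a log2 ratio of -0.98 on 13 and 6 loops, and Kcnk1 stayed under the minimum with 4 to 9.

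The 7 genes listed beside Irf2bp2 were paralogs and related genes, not all of them binding partners, and they lie elsewhere in the genome. None of the 7 changed by 1.5-fold after IFNG with priming, where 6.03% of all genes were lower and 7.85% higher by that much. Irf2bp2, at a log2 ratio of -0.34, did not either. In that contrast Nfatc1 was at -0.35 and Irf1 at -0.32, close to Irf2bp2. Klf2 was at -0.06, Irf2 at -0.04, Vgll4 at 0.12, Irf2bpl at 0.24 and Irf2bp1 at 0.39. The paralog Irf2bp1 had 11, 10, 9, 11 and 12 loops and the paralog Irf2bpl had 54, 55, 53, 64 and 62. Irf2 had 39, 38, 55, 44 and 53 loops, and Irf1, the activator that IRF2 can oppose, had 25, 32, 33, 23 and 26. Klf2, a factor that dampens MF inflammatory responses, had 38, 48, 56, 42 and 53. Nfatc1, a gene of the NFAT transcription factors, had 28, 25, 39, 23 and 30. Vgll4, a cofactor of TEAD factors, had 10, 9, 13, 20 and 14. Calls past 1.5-fold were found in other contrasts, on few loops. Vgll4 was higher in IFNG than in M0[CTR] at a scaled log2 ratio of 0.89, where 8.59% of genes were higher by 1.5-fold or more, and Irf2bp1 was lower in M2p[pIL-4] than in M0[CTR] at -0.61, where 3.96% were lower. Irf2, Irf1, Klf2 and Nfatc1 shared with Irf2bp2 their highest number in M2p[pIL-4], which is also the longest list.

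The genes whose scaled loop numbers over the 5 lists lay nearest to those of Irf2bp2, by Euclidean distance of centred log2 values among 9740 candidates over 1 Mb away, were Coro1c (0.0586), Lhx3 (0.0619), Kdf1 (0.0645), Dscaml1 (0.0745) and Polr2e (0.0790). Coro1c, an actin-binding coronin gene, had 30, 32, 41, 30 and 33 loops. Polr2e, an RNA polymerase subunit gene, had 77, 86, 108, 85 and 87. All 5 shared the highest value in M2p[pIL-4] by the construction of the measure.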

How the data were processed

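Hi-C contacts of 10 samples in 5 groups were available as 5 loop lists, 1 per group. The authors deposited whole-number contact counts per pair of 10 kb bins, with no normalization seen and both replicates appearing pooled. The labels name mm10, FastQC, Bowtie2, HiC-Pro, Juicer and HOMER; the methods describe HICCUPS at 25 kb, but the lists hold 10 kb bins and no false discovery rate, which leaves the caller and its threshold open to question. The study gives read depth as a range over samples, and depth was not used here; the lists hold contacts at called pairs alone. No loop ran past a chromosome end of GRCm38.

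The gene, lists of genes and rules were chosen with earlier results of these data known. GENCODE M21 gave the protein-coding genes, without chromosomes Y and M. Named genes were Irf2bp2 and coding genes with a TSS within 1 Mb or in a partner bin. The 7 listed paralogs and related genes and the 5 genes of nearest pattern were also named. Gm5150 and Dusp4 were named after their values were seen. Ratios of loop number plus 1 were divided by the ratio of list lengths and needed 10 loops in the higher list. Loops matched when both anchors lay within 25 kb. The anchor test, scaled by the contacts of pairs called in both lists, was tested on simulated data. Alternatives were other windows, matching, scaling, pseudocount, merged or filtered loops and equal list lengths; whole bins, the split at 200 kb and settings for loops inside the window were added after seeing the data. Scripts ran in Python 3.11.15 with scipy 1.17.1, numpy 2.4.6, matplotlib 3.10.9 and pandas 2.3.3.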

Additional observations from a re-analysis of the deposited data

Results flagged for a closer look

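In the main setting, the change in loop number near Irf2bp2 after IFNG differed in sign with and without priming. The scaled log2 ratio was -0.34 with priming and 0.01 without, a difference of -0.36. The difference was not tested, since each group has a single list. The unprimed value was near 0 and changed sign under several other settings, given below. The primed contrast is the one by which the gene was chosen. Its ratio reversed to 0.22 with touching bin pairs merged, where the unprimed ratio was -0.28. It was 0.022 for loops of 200 kb or more.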

How the results depend on the processing

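No paired analysis was possible because the lists carry no values by replicate, 1 list standing for a group, and for the same reason no replicate could be left out. Values follow in the order M0[CTR], M2[IL-4], M2p[pIL-4], IFNG and pIL-4 + IFNG. Loop numbers were 55, 67, 77, 58 and 60 in a 25 kb window either side of the TSS, 75, 89, 107, 73 and 82 in 50 kb, and 214, 242, 219 and 224 in 500 kb for the lists other than M2p[pIL-4], which moved less. Merging touching bin pairs left 25, 29, 24, 21 and 28. Split at 200 kb they were 46, 61, 79, 40 and 37 below and, for the first 3 lists, 88, 87 and 110 above. The log2 ratio after IFNG with priming reversed to 0.22 with touching pairs merged and to 0.022 for loops of 200 kb or more, and was -1.06 for shorter loops. That of IFNG to M0[CTR] reversed to -0.081 in a 50 kb window, -0.020 in 200 kb, -0.0091 in 500 kb, -0.28 with merging, -0.055 with whole bins and -0.19 for loops under 200 kb. That of M2p[pIL-4] to M0[CTR] reversed to -0.31 with merging and was 0.49 unscaled. Matching at the same bins gave 51.9% for M2p[pIL-4] loops and 65.7% for M0[CTR] loops, and within 50 kb 100% and 99.3%. Loops with both anchors in the window numbered 4, 8, 5, 1 and 2 at 50 kb either side, 57, 71, 100, 50 and 50 at 200 kb, and 9, 12, 6, 6 and 6 with merging. Of 129 alternative values, 72 kept their direction and range. The causes of the others were not tested, beyond fewer or more loops being counted by construction. With list totals as the scale, 4 of 20 anchors had an unadjusted p under 0.05 in M2[IL-4] against M0[CTR], none after adjustment, and the promoter bin was at -0.23 in place of -0.07. The share of all anchors under that limit was not taken at this scale, so the 4 cannot be set against it.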
